A study of Sus scrofa with 10 samples.

Results

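The genes described here encode the receptors for the main fast transmitters of the brain: the GABA-A subunits, the GABA-B receptor, the glycine receptor, and the ionotropic and metabotropic glutamate receptors. They were taken as the gene rows of the hypothalamic expression table whose name matches these families and which had an estimate in both groups, which gave 48 rows of 25009 and 46 gene names. RNA was sequenced from the hypothalamus, the brain region that governs appetite, growth and pituitary hormones, of Iberian x Landrace backcross pigs. The tissue came from 5 animals of high growth and fatness (high pigs) and 5 animals of low growth and fatness (low pigs). Age and sex were not given in the sources used here. The authors deposited 1 FPKM value per gene row and group, so the animals of a group share that value.

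GABA-A receptors are pentameric chloride channels assembled from alpha, beta and a further subunit, and GABA-B receptors are G protein-coupled dimers of GABBR1 and GABBR2. Glycine receptors are related chloride channels made of alpha subunits and GLRB. AMPA, kainate and NMDA receptors are tetrameric cation channels opened by glutamate, whereas the metabotropic receptors of the GRM family act through G proteins. In the hypothalamus GABA and glutamate carry most synaptic input to the neurons that release appetite and growth hormone peptides.

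The comparison asked whether these receptor genes stood at different levels in pigs that diverge in growth and fatness. Most receptor genes had a slightly higher value in high pigs, and no receptor gene had deposited bounds that separated the groups. The largest difference was in GABRQ, the theta subunit of the GABA-A receptor, at 8.06 FPKM (bounds 5.12 to 11.0) in high pigs and 3.96 FPKM (1.86 to 6.05) in low pigs. GRM3, a metabotropic receptor that lowers cyclic AMP, differed most in the other direction, at 10.8 FPKM (7.04 to 14.6) in high pigs and 16.4 FPKM (10.15 to 22.6) in low pigs. Both pairs of bounds overlapped.

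Of the 48 rows, 40 (38 gene names) had a mean over both groups of at least 1 FPKM and were compared as tested rows. Each difference is the log2(FPKM + 1) of high pigs minus that of low pigs, and the added 1 shrinks the change of weakly expressed genes. None (0) of the 40 had bounds that did not overlap, against 0.458% of 15281 tested rows in the table (0.0262% higher and 0.432% lower in high pigs). With 1 value per group there was no test across animals, and no unadjusted or adjusted p-value is given. The bounds were the authors'. At their widths, a receptor row higher in high pigs needed a high-to-low ratio of 2.06 to part its bounds (median, range 1.87 to 3.64). A row lower in high pigs needed a low-to-high ratio of 2.22 (median, range 1.95 to 4.62). Smaller differences could not part the bounds, so this rule could not call them.

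By direction, 31 of the 40 tested rows (77.5%) had the higher value in high pigs and 9 the lower, whereas 32.3% of all tested rows were higher in high pigs. The median difference was 0.11 for the receptor rows and -0.10 for all tested rows. Scaling by the median of ratios and quantile normalization moved the median of all tested rows to about 0 (0.00056 and -0.0026). Under each of them 37 receptor rows were higher and 3 lower, against 50.1% and 49.3% of all rows higher. The share was above that of all rows at each level of expression. Receptor rows with a mean of 1 to 5 FPKM were higher in 9 of 10 cases against 42.9% of all rows at that level, those from 5 to 20 FPKM in 15 of 18 against 30.6%, and those of 20 FPKM or more in 7 of 12 against 17.7%. These are counts over genes of the same libraries, which are not replicates.

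An FPKM ratio of at least 1.5 was reached by 3 rows higher in high pigs, GABRQ, GLRA3 and GRM8, and by 1 lower row, GRM3. That is 7.5% and 2.5% of the 40 rows, beside 3.25% and 6.71% of all tested rows (9.96% in either direction). GRM8 lay just inside this ratio at 1.501, and GABRE (1.48) lay just outside it. The other 36 rows differed by less than 1.5-fold.

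**Figure D1:**
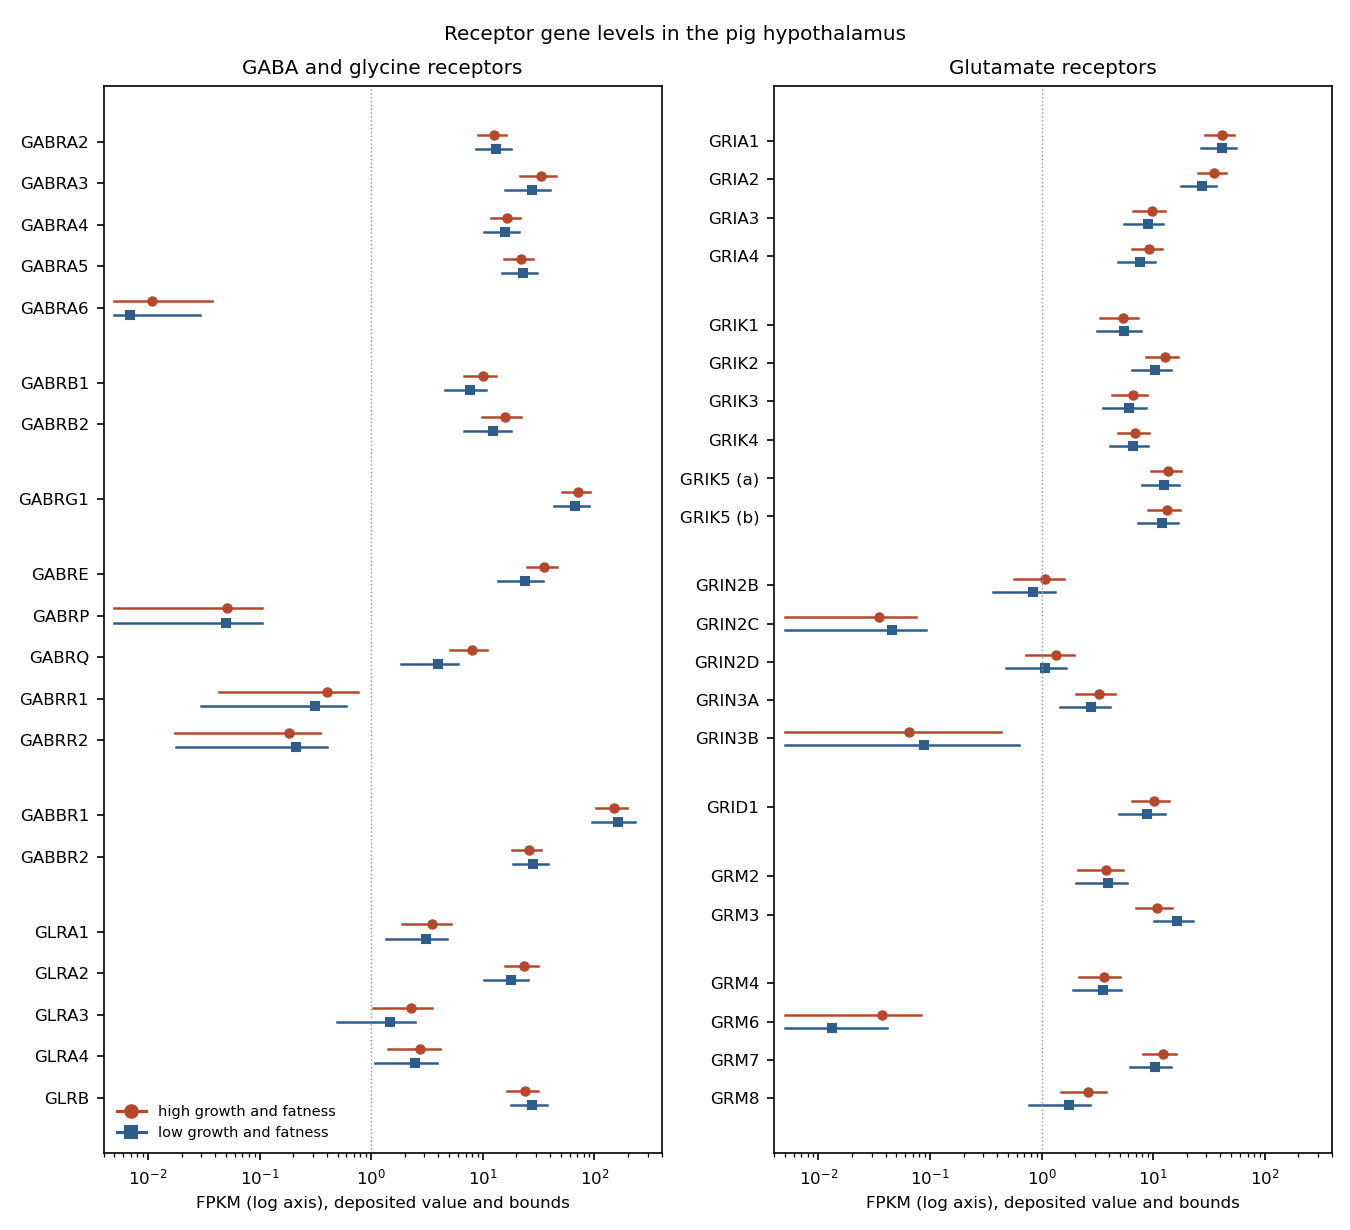
Deposited FPKM (points) with the authors' bounds (bars) for 42 of the 48 receptor rows, on a log axis, high pigs above low pigs, with the dotted line at 1 FPKM. Values and bounds under 0.005 FPKM are drawn at 0.005. GABBR1 stands above all other genes, and the bounds of the groups overlap in every row drawn. GRIK5 (a) and (b) are its rows in order along chromosome 6.

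Among all receptor genes, GABBR1 had the highest level in both groups, at 151 FPKM (104 to 198) in high pigs and 162 FPKM (94.3 to 230.3) in low pigs. GABRG1 followed at 71.5 FPKM (51.1 to 91.8) in high pigs and 66.5 FPKM (43.8 to 89.2) in low pigs. In the order of the 20 gene names with a mean of at least 10 FPKM, this was the only step between neighbours whose bounds separated, in high pigs and in low pigs alike. All later neighbours in the order overlapped.

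The GABA-A alpha subunits line the GABA site and set much of the receptor's drug sensitivity. GABRA3 was the highest of them, at 33.2 FPKM (21.4 to 45.0) in high pigs and 27.8 FPKM (15.8 to 39.7) in low pigs. GABRA5, which encodes a subunit known for extrasynaptic receptors in the rodent hippocampus, was at 21.9 FPKM (15.5 to 28.4) in high pigs and 22.8 FPKM (14.98 to 30.6) in low pigs. The bounds of GABRA3 and GABRA5 overlapped within each group.

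GABRA4 was at 16.6 FPKM (11.8 to 21.4) in high pigs and 15.8 FPKM (10.3 to 21.2) in low pigs. GABRA2 was at 12.5 FPKM (8.99 to 16.1) in high pigs and 13.2 FPKM (8.71 to 17.7) in low pigs. Their differences were 0.07 and -0.07 on the log2 scale. GABRA6, known mainly from cerebellar granule cells, was near 0, at 0.011 FPKM in high pigs and 0.0069 FPKM in low pigs.

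Of the summed alpha level, 102.7 FPKM in high pigs and 97.4 FPKM in low pigs, GABRA3 made up 32.3% in high pigs and 28.5% in low pigs. GABRA5 made up 21.3% in high pigs and 23.4% in low pigs. The alpha genes as a class had a median difference of 0.048, with GABRA2 and GABRA5 lower in high pigs in the deposited values and higher after either scaling.

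Beta subunits carry the other face of the GABA site. GABRB2 was at 15.8 FPKM (9.82 to 21.8) in high pigs and 12.4 FPKM (6.78 to 18.0) in low pigs. GABRB1 was at 9.94 FPKM (6.72 to 13.2) in high pigs and 7.62 FPKM (4.56 to 10.7) in low pigs. These genes differed by 0.33 and 0.34 on the log2 scale.

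Gamma subunits anchor GABA-A receptors at synapses and complete the benzodiazepine site. GABRG1, whose transcript in rodents is enriched in the hypothalamus and a few other regions, stood at 71.5 FPKM in high pigs and 66.5 FPKM in low pigs, a difference of 0.10 on the log2 scale.

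The epsilon and theta subunits, GABRE and GABRQ, are rarer GABA-A subunits that in rodents are concentrated in the hypothalamus and in monoamine cell groups. GABRE was at 35.6 FPKM (24.9 to 46.3) in high pigs and 24.1 FPKM (13.8 to 34.4) in low pigs, a difference of 0.54. GABRQ differed by 0.87, a ratio of 2.04, where a ratio of 2.41 would have parted its bounds. GABRE and GABRQ held the highest 2 differences of the tested receptor rows. GABRQ stood at 22.6% of the level of GABRE in high pigs and 16.4% in low pigs.

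GABRP and the rho subunits GABRR1 and GABRR2, which are known best from tissues outside the brain and from retina, were all under the filter. GABRR1 was at 0.406 FPKM in high pigs and 0.311 FPKM in low pigs, and GABRR2 at 0.182 FPKM in high pigs and 0.211 FPKM in low pigs. The file and the reference table of identifiers give different rho names to the GABRR2 row, so that name is uncertain. GABRP was at 0.051 FPKM in high pigs and 0.050 FPKM in low pigs.

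Summed over 16 gene names, GABA-A subunits reached 331 FPKM in high pigs and 294 FPKM in low pigs, a ratio of 1.13. Of 13 tested GABA-A rows, 11 were higher in high pigs and 2 lower, with a median of 0.10.

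Both GABA-B genes were lower in high pigs in the deposited values. GABBR1 binds GABA, and its partner GABBR2 brings it to the cell surface and couples it to G proteins. GABBR2 was at 25.8 FPKM (18.1 to 33.6) in high pigs and 28.4 FPKM (18.7 to 38.1) in low pigs, a difference of -0.13, and GABBR1 differed by -0.10. The sign of GABBR1 turned after either scaling and that of GABBR2 after quantile normalization. GABBR1 was 5.84 times GABBR2 in high pigs and 5.72 times in low pigs.

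Among the glycine receptor genes, GLRA2, the alpha subunit prominent in the developing rodent brain, led the alpha genes. It was at 23.5 FPKM (15.8 to 31.2) in high pigs and 17.9 FPKM (10.3 to 25.5) in low pigs, a difference of 0.37. GLRB, the beta subunit that tethers the receptor to gephyrin, ran the other way, at 23.7 FPKM (16.5 to 31.0) in high pigs and 27.9 FPKM (18.1 to 37.7) in low pigs, a difference of -0.22. GLRB stayed lower in high pigs after both scalings. The row of GLRB spans 6.83 kb, and whether it covers the whole gene was not checked.

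GLRA1, the main adult alpha subunit of spinal cord and brainstem, was at 3.52 FPKM (1.87 to 5.16) in high pigs and 3.08 FPKM (1.37 to 4.79) in low pigs. GLRA3 was at 2.25 FPKM (1.03 to 3.47) in high pigs and 1.47 FPKM (0.490 to 2.45) in low pigs, a ratio of 1.53 with a ratio of 3.64 needed to part its wide bounds. GLRA4 was at 2.76 FPKM (1.40 to 4.11) in high pigs and 2.48 FPKM (1.09 to 3.88) in low pigs. GLRA2 and GLRB each stood above these 3 genes with separate bounds in both groups. GLRB made up 42.6% of the summed glycine receptor level in high pigs and 52.8% in low pigs, and GLRA2 made up 42.1% in high pigs and 33.9% in low pigs.

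**Figure D2:**
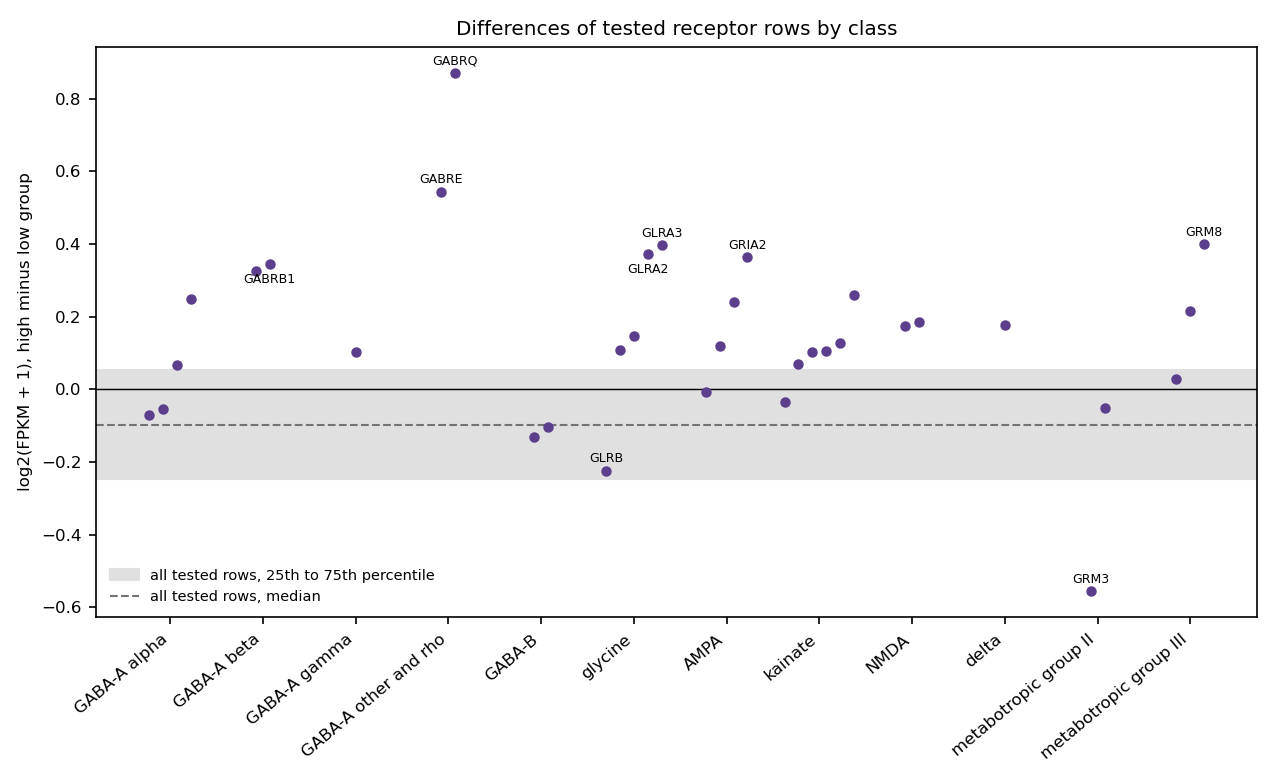
Difference of 34 of the 40 tested rows, as log2(FPKM + 1) of high pigs minus low pigs, by receptor class, with the median (dashed) and the 25th to 75th percentile (grey, -0.25 to 0.05) of all 15281 tested rows. GABRQ (0.87) and GABRE (0.54) lie highest and GRM3 (-0.56) lowest.

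AMPA receptors carry fast excitation, and their GRIA2 subunit limits calcium entry. GRIA1 was at 41.0 FPKM (29.2 to 52.9) in high pigs and 41.2 FPKM (27.0 to 55.5) in low pigs, so its values were nearly equal. GRIA2 was at 35.3 FPKM (25.4 to 45.1) in high pigs and 27.2 FPKM (17.9 to 36.5) in low pigs, a difference of 0.36. GRIA1 was 1.16 times GRIA2 in high pigs and 1.52 times in low pigs, with overlapping bounds of these genes within each group. An unnamed row with the same span as GRIA2 had bounds from 0 to 325 FPKM in high pigs and from 0 to 341 FPKM in low pigs, so reads may be divided between these rows and the GRIA2 level is uncertain.

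GRIA3 was at 9.76 FPKM (6.64 to 12.9) in high pigs and 8.91 FPKM (5.53 to 12.3) in low pigs. GRIA4 was at 9.17 FPKM (6.46 to 11.9) in high pigs and 7.60 FPKM (4.81 to 10.4) in low pigs. GRIA1 and GRIA2 stood above GRIA3 and GRIA4 with separate bounds in both groups. GRIA2 made up 37.0% of the summed AMPA level in high pigs and 32.0% in low pigs, and GRIA1 43.1% in high pigs and 48.6% in low pigs.

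Kainate receptors modulate transmitter release on both sides of the synapse, and GRIK4 and GRIK5 need a partner among GRIK1 to GRIK3 to form channels. GRIK5 has 2 rows on chromosome 6, which may share its reads and are uncertain for that reason. They were at 13.6 FPKM (9.50 to 17.7) and 13.2 FPKM (8.92 to 17.4) in high pigs, and at 12.6 FPKM (7.98 to 17.2) and 11.97 FPKM (7.35 to 16.6) in low pigs. GRIK2 was at 12.6 FPKM (8.67 to 16.6) in high pigs and 10.4 FPKM (6.44 to 14.4) in low pigs, the largest kainate difference at 0.26.

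GRIK4 was at 6.94 FPKM (4.79 to 9.08) in high pigs and 6.56 FPKM (4.07 to 9.05) in low pigs. Its span holds an unnamed row at 11.0 FPKM in high pigs and 10.8 FPKM in low pigs, so the GRIK4 level is uncertain. GRIK3 was at 6.57 FPKM (4.26 to 8.88) in high pigs and 6.05 FPKM (3.52 to 8.57) in low pigs. GRIK1 was the kainate gene with the lower value in high pigs, at 5.31 FPKM (3.35 to 7.27) against 5.47 FPKM (3.14 to 7.80) in low pigs, and its sign turned after either scaling. Of the kainate rows, 5 were higher and 1 lower in high pigs, with a median of 0.10.

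NMDA receptors detect coincident activity and admit calcium. The obligate subunit GRIN1 and the subunit GRIN2A were not matched to a row and are not analysed here, so the class is incomplete. GRIN3A, a modulatory subunit, was the highest, at 3.28 FPKM (2.01 to 4.56) in high pigs and 2.77 FPKM (1.46 to 4.08) in low pigs. GRIN2D was at 1.34 FPKM (0.732 to 1.95) in high pigs and 1.08 FPKM (0.484 to 1.67) in low pigs. GRIN2B, at 1.07 FPKM (0.560 to 1.58) in high pigs and 0.842 FPKM (0.367 to 1.32) in low pigs, was just under the filter. GRIN2C and GRIN3B were near 0, at 0.035 and 0.065 FPKM in high pigs and at 0.045 and 0.088 FPKM in low pigs. The GRIN3B row overlaps a row named C19orf6 (23.3 FPKM in high pigs and 24.3 FPKM in low pigs), and without strand their reads cannot be told apart.

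GRID1, a delta receptor, binds cerebellins at synapses and is not gated by glutamate in the usual way. It was at 10.1 FPKM (6.43 to 13.7) in high pigs and 8.79 FPKM (4.93 to 12.7) in low pigs, a difference of 0.18. Over the 14 tested rows of the AMPA, kainate, NMDA and delta classes, 12 were higher in high pigs and 2 lower, with a median of 0.12.

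**Figure D3:**
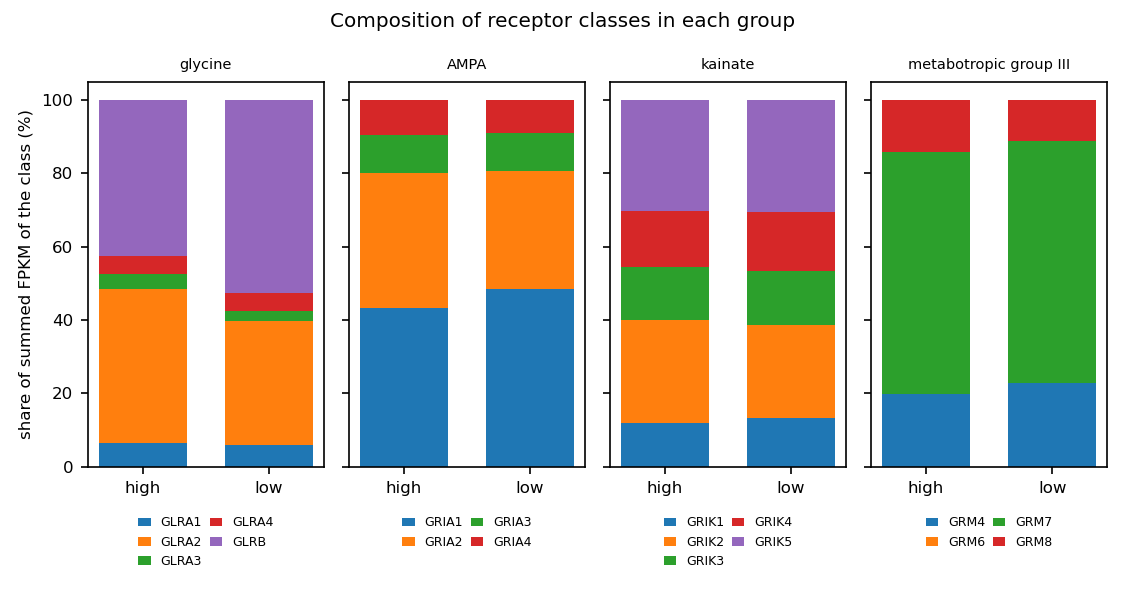
Share of each gene in the summed FPKM of its class, high pigs left of low pigs, for 4 classes, with 1 row per gene name. GLRB takes 42.6% of the glycine class in high pigs and 52.8% in low pigs, and GRIA2 takes 37.0% of the AMPA class in high pigs and 32.0% in low pigs.

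Metabotropic receptors of group I couple to phospholipase C. Among them GRM5 carried no name in the file. The row that a reference table of identifiers pairs with it was at 10.5 FPKM (6.61 to 14.4) in high pigs and 8.46 FPKM (4.66 to 12.3) in low pigs, and it is outside the counts given here.

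Group II receptors inhibit adenylyl cyclase. GRM3, which in mouse brain is also expressed by astrocytes, differed by -0.56, a low-to-high ratio of 1.51 where 2.18 would have parted its bounds, and it stayed lower in high pigs after both scalings. GRM2 was at 3.75 FPKM (2.10 to 5.40) in high pigs and 3.92 FPKM (2.04 to 5.80) in low pigs, and its sign turned after median-of-ratios scaling. Beside GRM3, the 6 astrocyte markers summed to 2345 FPKM in high pigs and 2856 FPKM in low pigs. Most of that sum was S100B, at 1437 FPKM in high pigs and 1801 FPKM in low pigs. Of these markers 1 of 6 was higher in high pigs, with a median of -0.19, and the bounds of all 6 overlapped. Of all tested rows with a mean of 20 FPKM or more, 17.7% were higher in high pigs, also with a median of -0.19. The part of astrocytes in the GRM3 difference was not tested.

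Group III receptors sit mainly on nerve terminals, where they curb release. GRM7 was at 12.1 FPKM (8.10 to 16.1) in high pigs and 10.3 FPKM (6.13 to 14.5) in low pigs. GRM8 was at 2.61 FPKM (1.48 to 3.75) in high pigs and 1.74 FPKM (0.767 to 2.72) in low pigs, a difference of 0.40. GRM4 was at 3.62 FPKM (2.16 to 5.09) in high pigs and 3.53 FPKM (1.92 to 5.14) in low pigs, and GRM7 stood above GRM4 and GRM8 with separate bounds in both groups. GRM6, the receptor of retinal bipolar cells, was near 0, at 0.037 FPKM in high pigs and 0.013 FPKM in low pigs. All 3 tested group III genes had the higher value in high pigs (median 0.22), whereas both group II genes had the lower value (median -0.30). The group II median rests mainly on GRM3 (-0.56), since GRM2 (-0.05) was near 0, as was GRM4 (0.03) of group III.

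Many GABA-A subunit genes lie side by side in the genome, which the choice of genes did not use. On build Sscrofa10.2, GABRE, GABRA3 and GABRQ occupy 0.464 Mb of chromosome X (140856582 to 141320841). All 3 had the higher value in high pigs, with differences of 0.25 (GABRA3) to 0.87 (GABRQ), and no other tested row lay between them. On chromosome 8, GABRG1, GABRA2, GABRA4 and GABRB1 occupy 1.26 Mb (38019084 to 39275411), with differences from -0.07 (GABRA2) to 0.34 (GABRB1).

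All 6 tested receptor rows on chromosome X, which include GLRA2, GLRA4 and GRIA3, were higher in high pigs, with a median of 0.31. Of 512 tested rows on that chromosome 39.3% were higher in high pigs, with a median of -0.06. On chromosome 16, 4 of 5 receptor rows were higher (median 0.10), against 30.5% of all tested rows there. Chromosome 8 had 5 of 7 receptor rows higher (median 0.07), against 36.4% of its tested rows. Chromosome 1 had 4 of 6 (median 0.14), against 34.6%. The share over all tested receptor rows was 77.5%. The sex of the animals was not given, so its part in the chromosome X values was not tested. On chromosome 8 GLRB and GRIA2 are neighbours within 0.212 Mb and had differences of opposite sign.

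**Figure D4:**
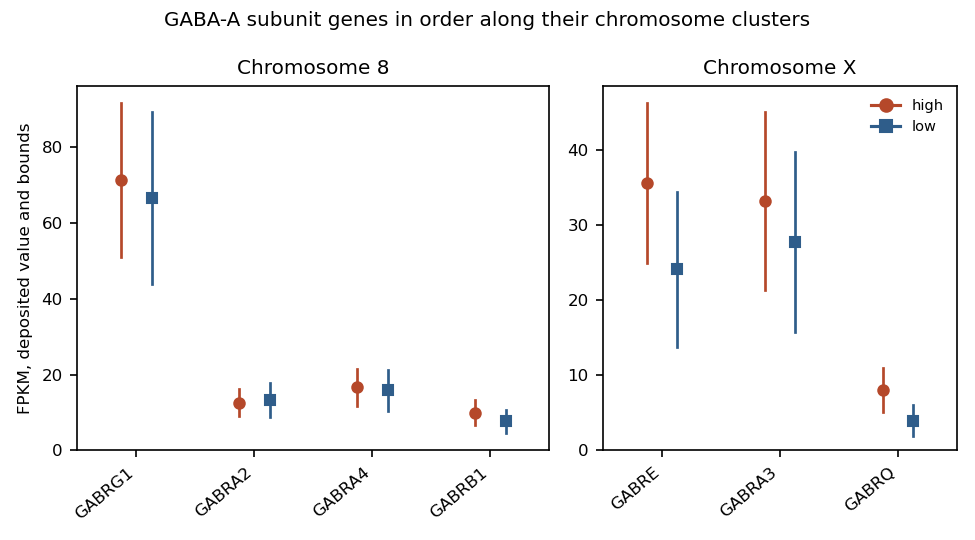
FPKM (points) with the authors' bounds (bars) for GABA-A subunit genes in their order along 2 chromosome clusters, high pigs left of low pigs, with an axis from 0 in each panel. The chromosome X genes have the higher value in high pigs throughout, and all bounds overlap.

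A list of 58 genes that make, load, clear, anchor or assist these transmitters and receptors was compared in the same way. Of 49 tested, 24 were higher and 25 lower in high pigs (median -0.0058), beside the 32.3% of all tested rows that were higher. The bounds separated for 1 of 49, SLC6A13, a GABA and taurine transporter, beside 0.458% of all tested rows. SLC6A13 was at 2.92 FPKM (1.59 to 4.24) in high pigs and 8.92 FPKM (4.36 to 13.5) in low pigs. In mouse brain it is a transporter of leptomeninges and blood vessels. Beside it, all 6 fibroblast and mural cell markers were lower in high pigs, 5 of them with separate bounds, with a sum of 50.5 FPKM in high pigs and 168.7 FPKM in low pigs. Their part in this difference was not tested.

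Among synthesis and vesicle-loading genes, 5 of 7 were higher in high pigs (median 0.23), beside 32.3% of all tested rows. GAD2, which makes GABA at terminals, was at 33.2 FPKM (23.3 to 43.1) in high pigs and 23.4 FPKM (13.5 to 33.3) in low pigs, the largest upward difference of the list at 0.49. SLC17A6, the vesicular glutamate transporter of the hypothalamus, was at 35.0 FPKM in high pigs and 37.5 FPKM in low pigs. SLC17A7, its cortical counterpart, was at 0.88 FPKM in high pigs and 1.60 FPKM in low pigs. The bounds of these 3 genes overlapped. Apart from SLC6A13 and GAD2, the partner genes with values here were picked for their role or size of difference after their values were seen.

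Auxiliary and scaffold genes of excitatory receptors were split, 13 higher and 12 lower in high pigs (median 0.04). Of all tested rows 32.3% were higher in high pigs, with a median of -0.10. The AMPA auxiliary gene CACNG5 was at 5.71 FPKM in high pigs and 3.83 FPKM in low pigs, and HOMER3, a scaffold of group I metabotropic receptors, at 10.4 FPKM in high pigs and 13.8 FPKM in low pigs. Inhibitory scaffold and trafficking genes were higher in 3 and lower in 6 of 9 cases (median -0.08), near the values of all tested rows. GPHN, which encodes the gephyrin scaffold, was at 16.6 FPKM in high pigs and 17.7 FPKM in low pigs. Uptake and breakdown genes were higher in 3 and lower in 5 of 8 cases (median -0.09), also near the values of all tested rows. GLUL, the astrocytic glutamine synthetase, was at 414 FPKM (283 to 545) in high pigs and 600.4 FPKM (314 to 887) in low pigs.

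Markers of neurons, of the hypothalamus and of other cells and tissues were read beside these differences. Of all tested rows 32.3% were higher in high pigs (median -0.10), and of those at 20 FPKM or more 17.7% (median -0.19). Of the 7 neuronal markers matched, 2 were higher in high pigs (median -0.14), a share near that of all tested rows. They had a sum of 1515 FPKM in high pigs and 1584 FPKM in low pigs. Hypothalamic markers were higher in 7 of 10 tested cases (median 0.26), while AGRP, NPY and POMC were lower. Their sum, with SIM1 under the filter, was 818 FPKM in high pigs and 631 FPKM in low pigs. Most of that sum was AVP, at 472 FPKM in high pigs and 354 FPKM in low pigs. All 7 myelin markers were lower in high pigs (2794 FPKM in high pigs, 4341 FPKM in low pigs), as were all 5 microglial markers (171 FPKM in high pigs, 249 FPKM in low pigs), all 4 tested pituitary markers (302 FPKM in high pigs, 639 FPKM in low pigs, summed with 2 markers under the filter) and all 3 blood markers (159 FPKM in high pigs, 389 FPKM in low pigs). Within the pituitary list PRL alone was at 279 FPKM (174 to 384) in high pigs and 570 FPKM (102 to 1039) in low pigs. Choroid plexus markers were higher in 1 of 3 cases (315 FPKM in high pigs, 469 FPKM in low pigs). The bounds separated for 2 of the 3 blood markers and overlapped for every neuronal, hypothalamic, myelin, microglial, pituitary and choroid plexus marker. Of 8 cortex, striatum and thalamus markers in the table, 2 of 5 tested were higher in high pigs (median -0.21). The 8 summed to 32.1 FPKM in high pigs and 50.15 FPKM in low pigs. PPP1R1B differed most, at 13.5 FPKM (8.37 to 18.5) in high pigs and 29.7 FPKM (17.0 to 42.4) in low pigs, with overlapping bounds. DRD1, TBR1 and EMX1 were under the filter, and EMX1 was listed at 0 in high pigs. In bulk tissue fewer cells of a type and less RNA per cell cannot be told apart, and the part of tissue makeup in the receptor differences was not tested.

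**Figure D5:**
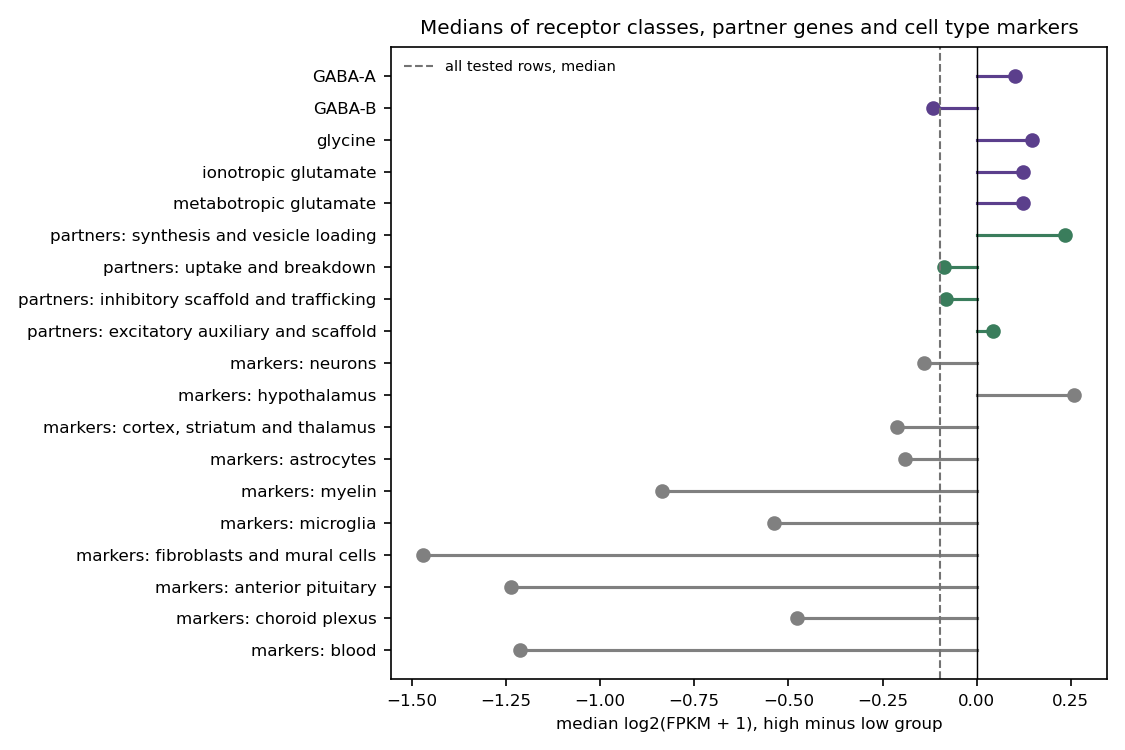
Median difference, as log2(FPKM + 1) of high pigs minus low pigs, for GABA-A, GABA-B, glycine, ionotropic glutamate and metabotropic glutamate receptors, each taken as a whole (purple), partner genes (green) and cell type markers (grey), with the median of all tested rows dashed at -0.10. The receptor points drawn lie between -0.12 (GABA-B) and 0.15 (glycine), and fibroblast and mural markers lie lowest at -1.47.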

How the data were processed

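Hypothalamic RNA of 10 pigs, 5 per group, was sequenced as paired-end libraries, per the labels' protocols. Cufflinks 2.0.2, TopHat2 2.0.5 with Bowtie2, Trim Galore, FastQC, CASAVA and build Sscrofa10.2 appear, without settings, in the submitters' processing notes. Per the file headers, the authors deposited FPKM, which scales fragments by transcript length and library size. Each gene row holds 1 such value for each group, its lower and upper bounds and a status. Which confidence level these bounds have is not given in the sources used here, and depth per sample is unknown. The kit named in the labels is not stated to mark strand.

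Of 25009 rows, 58 lacked an estimate in a group and were left out, and 15281 had a mean of at least 1 FPKM. Computed here with Python 3.11.15 and pandas 2.3.3 were log2(FPKM + 1) differences, ratios, and whether the deposited bounds overlap. The limma fit foreseen for values per animal could not be made. Starts, which the file counts from 0, were raised by 1. The scripts were tested on simulated data. Genes were named by a fixed rule: members with a mean of at least 10 FPKM, members with separate bounds, and in each class the highest member and those that differ most, while others are given by value too. Members and lists were chosen with earlier results of these data known. Where a list gene had several rows, the row with the highest mean was used. Alternatives were pseudocounts of 0.1 and 0.5, scalings, filters, 1 row per gene name and a ratio of 1.5. GABRD, GABRG3, GABRR3, GRIN1 and GRIN2A were not matched to a row and are not analysed here. Counts, sums and medians cover all matched rows, of which 6 are not reported here by name.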

Additional observations from a re-analysis of the deposited data

How the results depend on the processing

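The number of receptor rows with separate bounds was 0 under both scalings, without a filter, when means under 5 FPKM were left out, and with 1 row per gene name. Among all 15281 tested rows, median-of-ratios scaling gave separate bounds in 7 rows higher and 48 lower in high pigs. Quantile-normalized values gave 6 higher and 57 lower. Without a filter there were 4 higher and 68 lower of 24951 rows. Leaving out means under 5 FPKM gave 1 higher and 46 lower of 9606. With 1 row per gene name, 3 of 14609 were higher and 64 lower. A ratio of at least 1.5 gave 4 of 40 receptor rows, since that rule does not use the bounds. This ratio was reached by 9.96% of all tested rows. The median difference of receptor rows, 0.11, was 0.22 after median-of-ratios scaling and 0.22 after quantile normalization. The median of GABA-B turned to 0.049 after quantile normalization, and that of the metabotropic glutamate genes to -0.17 when means under 5 FPKM were left out, which kept GRM3 and GRM7 of the class. Of 40 rows, 33 kept their sign under every pseudocount and scaling, and the others (GABBR1, GABBR2, GABRA2, GABRA5, GRIA1, GRIK1 and GRM2) changed it under a scaling. No paired analysis was possible because each group has a single deposited value, which also kept single animals from being left out. Limits set by depth could not be measured, as depth is unknown.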

Other observations

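A row that is not named in the file lies inside the GABA-A cluster of chromosome 8, between GABRA4 and GABRB1. It (ENSSSCG00000022556, 38847260 to 38848519) was at 11.7 FPKM (6.44 to 17.0) in high pigs and 9.22 FPKM (4.29 to 14.2) in low pigs, with overlapping bounds. This row was picked by position after the values of the receptor genes were seen.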
